A study of Mus musculus with 24 samples.

Results

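The genes described here are 40 imprinted genes of the mouse, measured in bone marrow LSK cells of pups whose mothers had eaten a Western diet or chow. They were chosen by symbol from a list of named imprinted genes, and all 40 were found among the 55414 gene identifiers of the count tables. By textbook knowledge 22 of them are expressed from the paternal allele, 12 from the maternal allele, and 6 from one allele in some tissues or transcripts only. The counts carry no information on the parental allele, so the classes are background and were not measured. Ppp1r9a, known for maternal expression in some fetal tissues, was counted with the maternally expressed genes.

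LSK cells lack lineage markers and carry Sca-1 and Kit, and they contain the blood stem cells and multipotent progenitors. They were sorted from marrow of pups at postnatal day 21. The C57BL/6J dams ate Western diet (TD.88137) or chow (2018SX) for 4 weeks ahead of mating, while pregnant and while nursing; the sires are not named in the labels. The groups are female pups of Western-diet dams, female pups of control dams, male pups of Western-diet dams and male pups of control dams, with 6 libraries each and 2 of each group in each of 3 labelled batches. Dams and litters are not named; p-values therefore reflect the spread among libraries, in which littermates may occur.

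Imprinted genes carry a DNA methylation mark laid down in the egg or the sperm, and one parental copy stays silent in the offspring. The mark at most domains lies in a control region, and the zinc finger protein ZFP57 keeps it in the embryo by binding the methylated hexamer TGCCGC. Many of the genes act on growth: Igf2 codes for a fetal growth factor, and the products of Igf2r, Grb10 and Phlda2 restrain growth. In mouse marrow, H19, the Dlk1-Meg3 domain, Cdkn1c and Ndn have been studied as regulators of stem cell quiescence.

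Per library, 38057000 to 51582000 counts fell in genes, and 25673 to 27858 genes had a count. Levels are CPM, each count divided by its TMM-adjusted library size. All 10 LSK markers had 10 or more counts in every library, a bar that most markers of other cell types also met. Ly6a, the Sca-1 gene, averaged 16.1 CPM in Western-diet females and 8.49 CPM in control females. In males it averaged 14.7 CPM after Western diet and 17.1 CPM in controls. Stromal markers were seen too (10 of 10 genes), with a summed level of 245 to 669 CPM in Western-diet females and 465 to 983 CPM in control females. In males the sum was 474 to 739 CPM after Western diet and 236 to 1345 CPM in controls. On the first principal component, 17.5% of the variance, libraries 5 and 6 of the control females, both in batch 3, lay at -91.0 and -72.4, apart from the next lowest library at -29.3. Values without both are given where they alter a call. Markers of megakaryocyte-erythroid priming (8 of 8 genes seen) summed to 841 to 1613 CPM in Western-diet females, against 1594 to 4644 CPM in control females. Males had 877 to 1538 CPM after Western diet, against 1136 to 3317 CPM in controls. The 2 highest sums of all 24 libraries were in control female libraries 5 and 6, at 4644 and 4422 CPM. The same 2 libraries had the lowest LSK marker sums, at 1123 and 1124 CPM. Mature erythroid markers (8 of 8 seen) summed to 641 to 2778 CPM after Western diet and 1141 to 8515 CPM in controls among females, and to 869 to 3129 CPM after Western diet and 2459 to 6849 CPM in controls among males. B cell markers (6 of 6 seen) summed to 200.4 to 719.7 CPM after Western diet and 82.1 to 379.5 CPM in controls among females, and to 214 to 415 CPM after Western diet and 211 to 404 CPM in controls among males. Macrophage markers (6 of 6 seen) summed to 215 to 1330 CPM after Western diet and 189 to 1380 CPM in controls among females. Among males they summed to 251 to 748 CPM after Western diet and 194 to 640 CPM in controls. The part of these sets in the results was not tested. In such bulk samples, fewer cells of a type and less RNA per cell cannot be told apart.

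The sequences below are the windows around the RefSeq start site (250 bases before to 50 after, build GRCm38.p6) of the 3 members to which the diet and batch results return: Ppp1r9a, which differed with maternal diet, Kcnq1ot1, which varied with it across libraries, and Nap1l5, with the smallest p between batches. Capitals mark the ZFP57 hexamer TGCCGC, searched on both strands. Ppp1r9a, the first of 2 windows, lies at chr6:4903061-4903360 on the + strand and holds 48 CpG. Kcnq1ot1 lies at chr7:143296498-143296797 on the - strand and holds 9 CpG. Nap1l5 lies at chr6:58907077-58907376 on the - strand and holds 17 CpG and 2 hexamers.
Ppp1r9a: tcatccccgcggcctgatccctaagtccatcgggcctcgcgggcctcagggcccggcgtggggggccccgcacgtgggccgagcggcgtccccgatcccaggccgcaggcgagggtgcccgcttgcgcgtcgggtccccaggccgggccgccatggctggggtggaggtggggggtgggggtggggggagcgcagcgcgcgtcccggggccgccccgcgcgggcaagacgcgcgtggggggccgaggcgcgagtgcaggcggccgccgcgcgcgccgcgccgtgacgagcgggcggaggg
Kcnq1ot1: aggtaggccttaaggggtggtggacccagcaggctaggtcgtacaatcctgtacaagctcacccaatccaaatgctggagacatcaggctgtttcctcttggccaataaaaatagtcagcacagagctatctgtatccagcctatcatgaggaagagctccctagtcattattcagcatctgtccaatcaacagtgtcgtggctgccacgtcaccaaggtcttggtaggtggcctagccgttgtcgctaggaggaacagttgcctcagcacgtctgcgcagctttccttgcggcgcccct
Nap1l5: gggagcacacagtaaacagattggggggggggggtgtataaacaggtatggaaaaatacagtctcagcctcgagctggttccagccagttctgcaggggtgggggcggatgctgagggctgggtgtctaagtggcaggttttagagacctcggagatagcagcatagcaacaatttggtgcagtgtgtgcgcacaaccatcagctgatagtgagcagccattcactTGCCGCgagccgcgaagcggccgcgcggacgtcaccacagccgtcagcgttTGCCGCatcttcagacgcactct

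Windows were found for 35 of the 40 genes, 51 windows in all. The hexamer stood in 13 of these windows (25.5%), and in 11.6% of all 32851 windows of the table. It was in 8 of 26 windows of paternally expressed genes and in 3 of 15 windows of maternally expressed genes. Windows can overlap, so these are not counts of separate sites. The Mest windows starting at chr6:30737800 and chr6:30737803 nearly coincide, and each held 2 hexamers. The member windows had a median of 16 CpG, against 7 over all windows. A match describes the letters and does not show binding.

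Of the 40 genes, 31 had enough counts to be tested: 16 of 22 paternally expressed, 9 of 12 maternally expressed and all 6 with tissue- or transcript-dependent imprinting. In every library 29 had 10 or more counts, and Plagl1 (1 to 49 counts) and Snrpn (4 to 28 counts) were tested but fell under 10 in some. The 9 that were not tested are Igf2, Rtl1, Dio3, Usp29, Magel2 and Rasgrf1 among the paternally expressed genes, and Rian, Mirg and Zim1 among the maternally expressed ones. Dio3, the deiodinase that inactivates thyroid hormone, and the MAGE family gene Magel2 each had at most 1 count, in 1 library. Igf2 had at most 4 counts and was seen in 8 libraries. The limit that a count of 0 allows, 3 counts, is 0.0582 to 0.0788 CPM in these libraries, for counting error only.

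Abundance differed far more between genes than between groups. Per kilobase of exon, H13, the signal peptide peptidase, had 19.3 CPM, Impact, an inhibitor of the stress kinase GCN2, had 14.2 CPM, and Copg2, a coatomer subunit, had 13.8 CPM. Peg12, a FRAT family gene that binds the kinase GSK3, had 12.3 CPM per kilobase, Blcap had 11.7 and Grb10, an adaptor that dampens insulin and IGF receptors, had 7.74. Commd1 had 4.26 CPM per kilobase, and the ubiquitin ligase gene Ube3a had 3.08. Kcnq1ot1, the long noncoding RNA that silences its neighbours on the paternal chromosome, had 1.80 CPM per kilobase and 168 CPM over its whole length. Ppp1r9a, which codes for the actin-binding neurabin I, had 1.76 CPM per kilobase, Igf2r, the receptor that clears IGF2, had 1.55, and the epsilon-sarcoglycan gene Sgce had 1.25. These genes were picked by CPM not divided by length, so they are not the ranking per kilobase. Mcts2 (2.69) and Phlda2 (1.96) exceeded Kcnq1ot1 on that scale, and Slc22a18 (1.65) exceeded Igf2r. On this scale the median was 0.299 CPM per kilobase for the 22 paternally expressed genes, 0.439 for the 12 maternally expressed genes and 8.00 for the 6 others. Not divided by length, the medians were 1.15, 0.852 and 49.6 CPM in the same order. Which of the parental classes was higher thus depends on the scale. Among genes studied in stem cell quiescence, H19 had a median of 36.5 counts per library, Dlk1 49.5, Meg3 33 and Ndn 170.5. H19, which is also expressed outside blood cells, had r 0.482 and rho 0.419 with the stromal markers over 24 libraries after removing group and batch means (permutation p = 0.0182 and 0.0418, adjusted over 310 relations 0.131 and 0.216), and r 0.433 without the 2 libraries farthest from the median. Other members had like values, among them Mest (r 0.454, rho 0.475) and Peg3 (r 0.419, rho 0.423). No member's relation with the stromal markers passed after adjustment.

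**Figure D1:**
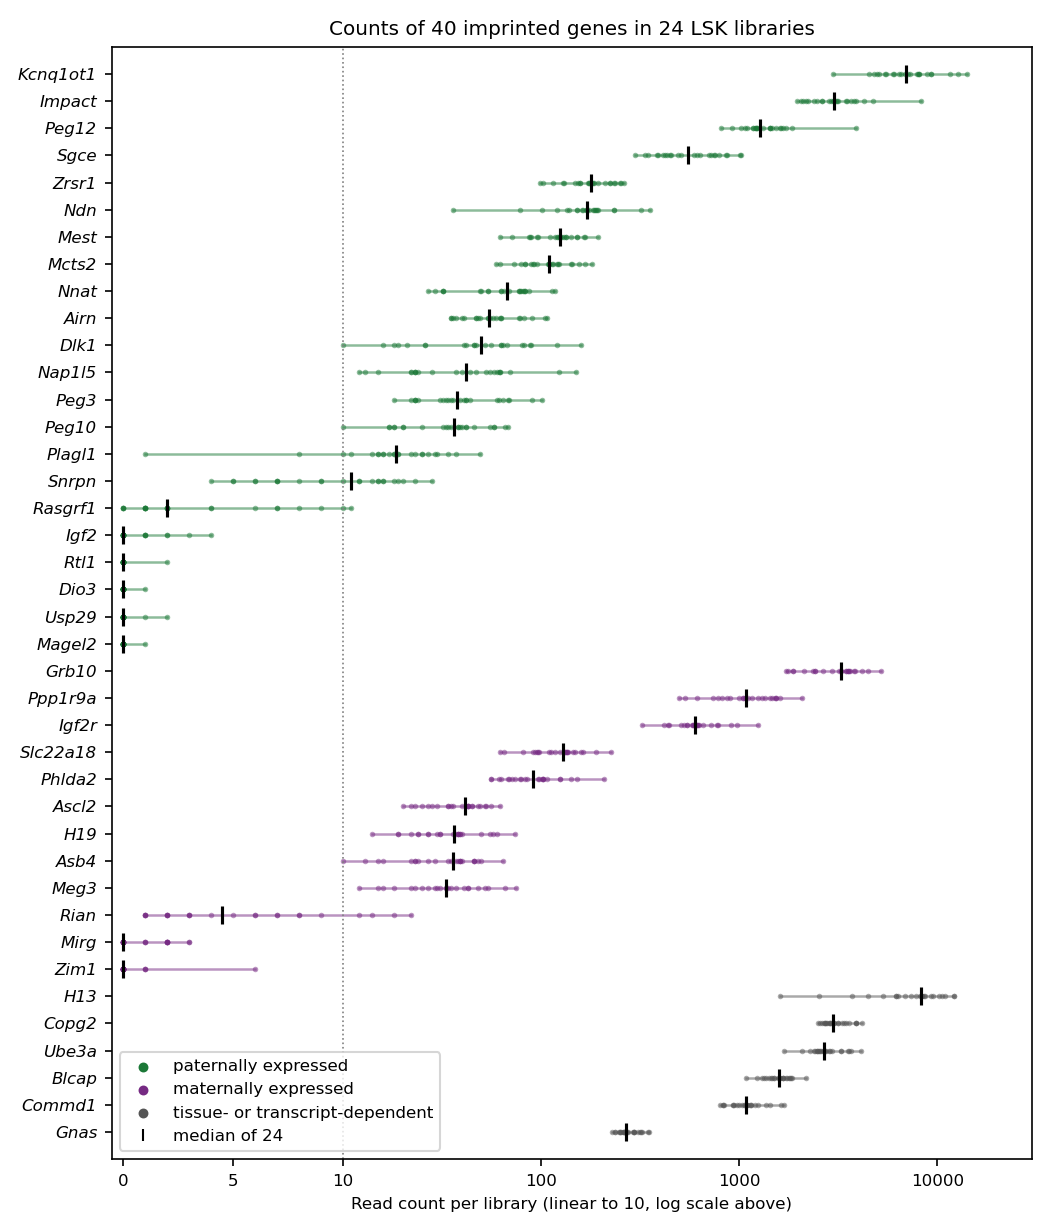
Read counts (x axis, linear to 10 and logarithmic above) of the 40 imprinted genes (y axis) by class; each point is 1 of 24 libraries and each tick the median. The dotted line stands at 10 counts, and 29 genes lie at or right of it in every library.

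The counting leaves some members uncertain, since the kit does not mark strand. In the older annotation used for names, Igf2 shares 64.5% of its exonic bases with other genes, among them Igf2os on the other strand, so its low count need not reflect its whole RNA. In the same annotation, Mest and Copg2 overlap tail to tail over 912 exonic bases, 23.1% of Mest. Ube3a overlaps antisense genes such as Snhg14 over 27.3% of its exons, Gnas overlaps Nespas and another gene over 22%, and Snrpn overlaps genes such as Snurf over 34.1%. Zrsr1, Mcts2 and Nap1l5 are intronless copies inside Commd1, H13 and Herc3, and reads may be split between copy and relative. On average Mcts2 had 2.46 CPM and its parent gene Mcts1 71.7 CPM, Zrsr1 had 4.13 CPM and its relative Zrsr2 43.6 CPM, and Nap1l5 had 1.05 CPM and its host Herc3 6.18 CPM, values not divided by length. Kcnq1 itself shares 2.96% of its exonic bases with Kcnq1ot1 on the other strand, and had a median of 15.5 counts.

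The first comparison asks what maternal Western diet changed in female pups. Of the 31 members tested, 1 rose and none fell (edgeR quasi-likelihood test, Benjamini-Hochberg adjusted p under 0.05). Of all 19616 genes tested, 5.42% were called, 2.2% higher and 3.22% lower. At an unadjusted p under 0.05 there were 8 of 31 members, against 21.3% of all genes. No member had groups that did not overlap, a pattern shown by 0.469% of genes that were higher and 0.714% that were lower.

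The gene that rose was Ppp1r9a, expressed from the maternal allele in some fetal tissues. In females its lowest, median and highest CPM were 18.7, 31 and 48 after Western diet, against 12.4, 21.9 and 23.3 in controls. The groups overlapped through 1 Western-diet library, of batch 3, and the other 5 lay above the highest control. The 2 lowest controls were libraries 5 and 6. Its log2 fold change was 0.71 ± 0.17 (SE, n = 6 libraries each; edgeR adjusted p = 0.0166), a fold of 1.63. Within batches 1, 2 and 3 the log2 difference was 0.20, 0.83 and 0.98. Without female control libraries 5 and 6 it was 0.57 with an adjusted p of 0.238, and leaving out only library 5 or only library 6 gave an adjusted p of 0.0542 or 0.0559.

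Ppp1r9a also moved with a property of the libraries, the share of reads that fall in no annotated gene. That share had a lowest, median and highest value of 7.90, 10.1 and 16.4% in Western-diet females, against 8.70, 9.02 and 9.53% in control females. Over 24 libraries, after removing group and batch means, Ppp1r9a and the share had a Pearson's r of 0.712 and a Spearman's rho of 0.642 (permutation p = 5e-05 and 0.00082, adjusted over 310 relations 0.00387 and 0.0231). Without the 2 libraries farthest from the median share r was 0.617. With the share as a covariate the log2 fold change in females was 0.44 (edgeR adjusted p = 0.0747). The part of the share in the diet result was not tested beyond that. With the summed megakaryocyte-erythroid markers Ppp1r9a had r -0.515 and rho -0.447 (permutation p = 0.00998 and 0.03, adjusted 0.0894 and 0.179). Without the 2 farthest libraries that r was -0.453. The part of these markers in the Ppp1r9a values was not tested.

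Kcnq1ot1 had the next smallest p in females and did not pass. It had 118, 221 and 324 CPM (lowest, median, highest) after Western diet, against 112, 130 and 147 CPM in control females. Both Western-diet libraries of batch 1 lay among the controls and the other 4 above all of them. The log2 fold change was 0.72 ± 0.24 (SE, n = 6 each; edgeR adjusted p = 0.0859), with within-batch differences of -0.08, 1.28 and 0.72. With the no-gene share as covariate it was 0.27 (edgeR adjusted p = 0.390), and its r with that share was 0.785 over 24 libraries and rho 0.783 (permutation p = 2e-05 and 4e-05, adjusted 0.0031 and 0.0124), with r 0.766 without the 2 farthest libraries. Of the other tested genes of its domain none passed in females. Ascl2, a transcription factor gene of the placenta, had a log2 fold change of 0.41, Slc22a18, an organic cation transporter gene, one of -0.16 and Phlda2 one of -0.44. Silencing of these genes by Kcnq1ot1 on the paternal copy was not measured in these cells. Kcnq1ot1 also varied inversely with the summed LSK markers (r -0.622, rho -0.606, permutation p = 0.00115 and 0.00205, adjusted 0.0189 and 0.0424, and r -0.557 without the 2 farthest libraries) and with the endothelial markers (r -0.684, rho -0.665, permutation p = 0.00026 and 0.00049, adjusted 0.016 and 0.0174, and r -0.674). The part of these markers in the Kcnq1ot1 values was not tested.

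Igf2r, next in order of p, had 10.2, 12.3 and 18.3 CPM (lowest, median, highest) in Western-diet females, against 13, 16.6 and 30.8 CPM in control females, where libraries 5 and 6 were the 2 highest. The groups overlapped, although 3 of the 6 libraries after Western diet lay under the lowest control. Its log2 fold change was -0.52 ± 0.18 (SE, n = 6 each; edgeR adjusted p = 0.0992), and within batches it was 0.02, -0.52 and -1.04. Igf2r levels also moved with the megakaryocyte-erythroid markers (r 0.652, rho 0.611 over 24 libraries, permutation p = 0.00065 and 0.00198, adjusted 0.016 and 0.0424, and r 0.611 without the 2 farthest libraries), as did Grb10 (r 0.664, rho 0.637, permutation p = 0.00051 and 0.00108, adjusted 0.016 and 0.0279, and r 0.603). The part of these markers in the Igf2r values was not tested.

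**Figure D2:**
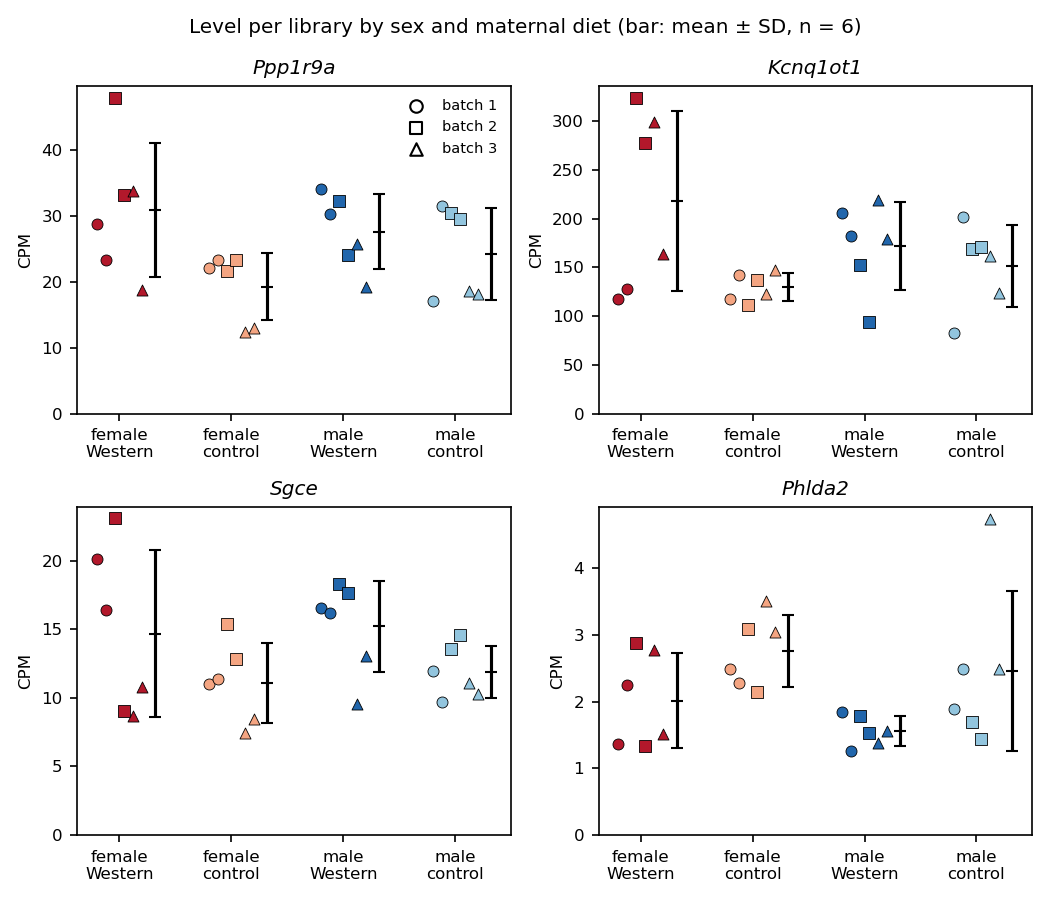
CPM (y axis) of Ppp1r9a, Kcnq1ot1, Sgce and Phlda2 in each library by sex and maternal diet (x axis); symbols give the batch, and bars the mean ± SD of 6. Female control libraries of batch 3 are the lowest 2 of their group for Ppp1r9a, and 4 Western-diet females lie above all control females for Kcnq1ot1.

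In male pups no member passed the test, where 0.0102% of genes were called, and 3 of 31 had an unadjusted p under 0.05, against 8.45% of all genes; DESeq2 and limma-voom called no member either. No member had groups without overlap, a pattern of 0.209% of genes that were higher and 0.291% that were lower. The smallest p belonged to Snrpn, a spliceosome gene, which had 0.132, 0.438 and 0.624 CPM (lowest, median, highest) in Western-diet males and 0.101, 0.211 and 0.320 CPM in control males. Of its Western-diet libraries 5 lay above all controls, at counts of 28 or fewer. Its log2 fold change was 1.00 ± 0.35 (SE, n = 6 each; edgeR adjusted p = 0.406).

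Meg3, a maternally expressed noncoding RNA, had 0.446, 0.536 and 0.735 CPM in Western-diet males, against 0.417, 1.05 and 1.22 CPM in control males. All 6 Western-diet libraries lay below the control mean, and none below the lowest control. The log2 fold change was -0.80 ± 0.30 (SE, n = 6 each; edgeR adjusted p = 0.461). Phlda2, a pleckstrin homology protein that limits placental growth, had 1.27, 1.55 and 1.85 CPM in Western-diet males, against 1.44, 2.19 and 4.74 CPM in control males, where library 5 stood above the rest. Its log2 fold change was -0.59 ± 0.25 (SE, n = 6 each; edgeR adjusted p = 0.506).

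Averaged over both sexes, Ppp1r9a was again the member that rose, and no member fell, against 5.7% of genes called, 2.19% higher and 3.51% lower. Its log2 fold change was 0.46 ± 0.12 (SE, 12 libraries each; edgeR adjusted p = 0.0251). In males alone it had 19.1, 28 and 34.2 CPM after Western diet, against 17.1, 24.1 and 31.4 CPM in controls, a log2 fold change of 0.21 ± 0.17 (edgeR adjusted p = 0.758). The average lost its call without female control libraries 5 and 6 (edgeR adjusted p = 0.140), without library 5 (0.0516) or library 6 (0.0552) of them alone, and with the no-gene share as covariate (log2 fold change 0.26, adjusted p = 0.182).

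Sgce and Phlda2 came next in the average. Sgce had 8.68, 13.6 and 23.1 CPM in Western-diet females and 7.42, 11.2 and 15.4 CPM in control females, and 9.58, 16.4 and 18.3 CPM in Western-diet males and 9.71, 11.6 and 14.6 CPM in control males. In males 4 of 6 Western-diet libraries lay above all controls. The averaged log2 fold change was 0.37 ± 0.12 for Sgce (edgeR adjusted p = 0.0778) and -0.52 ± 0.17 for Phlda2 (edgeR adjusted p = 0.0805; SE, 12 libraries each). With the no-gene share as covariate Phlda2 had a log2 fold change of -0.67 and passed (edgeR adjusted p = 0.0339). The share of all genes called in that fit is not given here.

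Over the 6 differences within a sex and batch, 3 of 31 members were higher after Western diet in every one: Sgce, Snrpn and Nap1l5, all paternally expressed. The same held for 3.17% of all genes tested. No member was lower in all 6, against 4.17% of genes. Nap1l5, a nucleosome assembly protein gene whose window is printed above, had 0.287, 0.929 and 2.95 CPM in Western-diet females and 0.324, 0.523 and 1.19 CPM in control females, and averaged over sexes it did not pass.

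**Figure D3:**
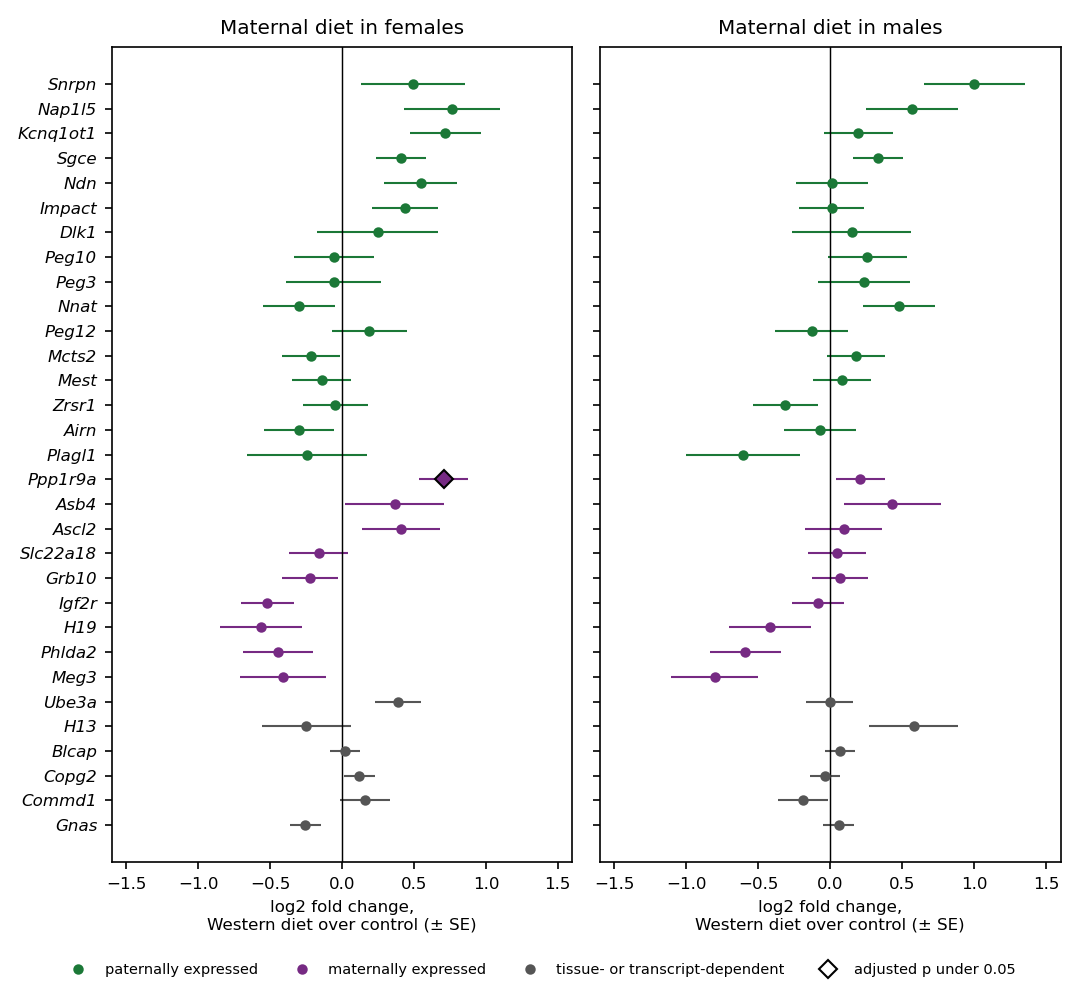
Log2 fold change, Western diet over control, with its SE (x axis) for the 31 members tested (y axis), in females and in males; colours give the class and the diamond an adjusted p under 0.05. Ppp1r9a in females is the member with a diamond.

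Paternally and maternally expressed genes were then set side by side. Among paternally expressed genes 8 of 16 had a positive log2 fold change in females, 12 in males and 11 in the average, and none passed. Among maternally expressed genes it was 3 of 9 in females, 5 in males and 3 in the average. Ppp1r9a, counted in this class though described above as maternally expressed in some fetal tissues, passed in females and in the average. The comparison of calls between the classes in this fit thus rests on its label. DESeq2 called 3 members in the average, Meg3, Phlda2 and Ppp1r9a, all classed as maternally expressed. Their edgeR log2 fold changes there differed in sign, at -0.61, -0.52 and 0.46. DESeq2 also called more of all genes there than edgeR did, as the last section gives. Limma-voom called Meg3, Ppp1r9a and the paternally expressed Sgce in the average, and the share of all genes it called there is not given here. In females DESeq2 called Gnas, the paternally expressed Kcnq1ot1 and Ppp1r9a. Over all genes 10507 of 19616 were positive in females, 10553 in males and 10722 in the average. The median log2 fold change in females was 0.07 for the paternal class and -0.22 for the maternal class, against 0.03 over all genes. In males it was 0.16 and 0.05, against 0.02, and in the average 0.09 and -0.08, against 0.02. These medians are descriptions with no test. Without female control libraries 5 and 6 the median in females was -0.01 for the paternal class and -0.26 for the maternal class, in which 10 genes then had enough counts, against 0.01 over all genes. The 6 tissue- or transcript-dependent genes had medians of 0.07 in females and 0.03 in males.

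The difference between the diet effects, male minus female, passed for no member and for 0% of all genes. At an unadjusted p under 0.05 edgeR gave 1 of 31 members, against 8.32% of genes, and DESeq2 and limma-voom called no member. That member was Nnat, a small membrane protein gene of neurons. It had 0.737, 1.13 and 2.24 CPM in Western-diet females and 1.32, 1.57 and 1.84 CPM in control females, and 1.21, 1.70 and 2.61 CPM in Western-diet males and 0.728, 1.38 and 1.64 CPM in control males. The difference of log2 fold changes was 0.78 ± 0.35 (SE; edgeR adjusted p = 0.590). Gnas, which codes for the stimulatory G protein alpha subunit, averaged 6.35 CPM, a count that the exon overlap given above may lower. Its difference of log2 fold changes was 0.31 ± 0.15 (edgeR adjusted p = 0.598), and that of Ppp1r9a -0.50 ± 0.24 (adjusted p = 0.598). So the diet effect on Ppp1r9a, called in females and not in males, was not shown to differ between the sexes.

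Between the sexes, averaged over diets, no member passed, where 0.184% of genes did (0.148% higher and 0.0357% lower in males), and 3 had an unadjusted p under 0.05, against 12.4% of genes; DESeq2 and limma-voom called none. The 3 were Nap1l5 with a log2 fold change, male over female, of 0.58 ± 0.23 (SE; edgeR adjusted p = 0.300), Peg3, a zinc finger gene, with 0.57 ± 0.23 (adjusted p = 0.313), and Igf2r with -0.28 ± 0.13 (adjusted p = 0.365). Mean Peg3 was 1.30 ± 0.62 CPM in Western-diet males and 1.10 ± 0.45 CPM in control males, and 0.761 ± 0.19 CPM in Western-diet females and 0.789 ± 0.30 CPM in control females (SD, n = 6 each).

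Batch, balanced over the groups in the labels, was called for 5 of 31 members and for 24.2% of all genes (edgeR F test of both batch terms); 37% of genes had an unadjusted p under 0.05. They were Nap1l5 (edgeR adjusted p = 0.00233), Sgce (0.00769), Ppp1r9a (0.0100), Peg10, a gene derived from a retrotransposon (0.0150), and Dlk1, a membrane-bound ligand related to Notch ligands (0.0369). Of the 5, 4 are classed as paternally expressed and Ppp1r9a as maternally expressed. All 5 had their lowest mean in batch 3. Nap1l5 averaged 1.67 ± 0.81 CPM in batch 1, 0.820 ± 0.30 CPM in batch 2 and 0.663 ± 0.42 CPM in batch 3 (SD, n = 8 each). Sgce averaged 14.2 ± 3.65, 15.6 ± 4.21 and 9.92 ± 1.78 CPM in the same order, and Peg10 averaged 1.03 ± 0.30, 0.855 ± 0.25 and 0.530 ± 0.20 CPM. Dlk1 averaged 1.28 ± 0.53, 1.72 ± 0.86 and 0.730 ± 0.45 CPM. Sgce, Peg10 and Ppp1r9a belong to one imprinted cluster on chromosome 6. The remaining member of that cluster, Asb4, was not called for batch (edgeR adjusted p = 0.559). Without batch 3 no member was called for batch, and without female control libraries 5 and 6 only 1 was.

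**Figure D4:**
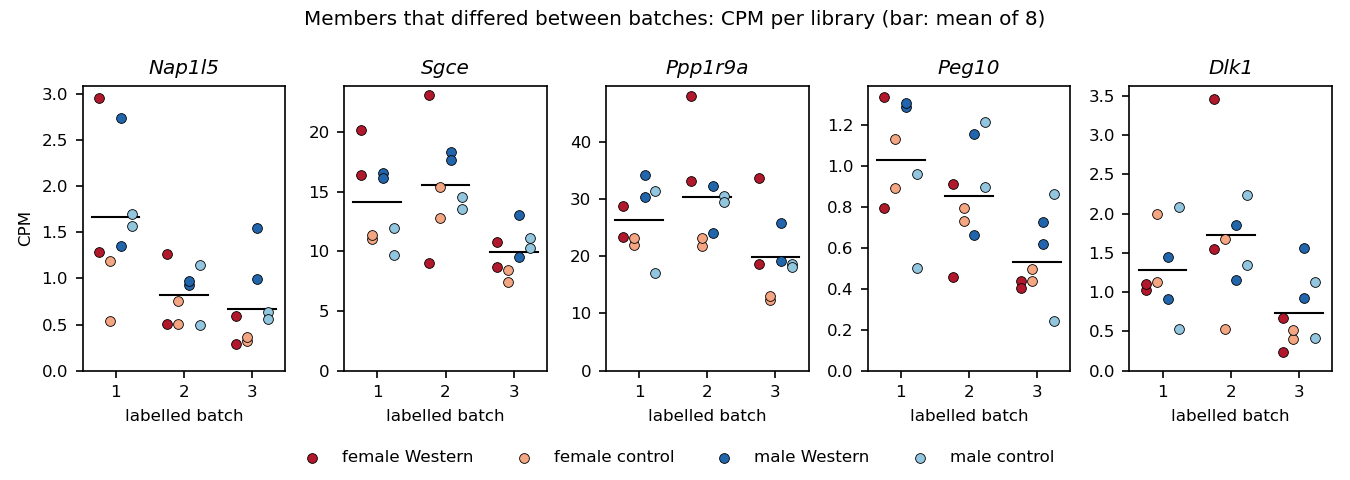
CPM (y axis) of Nap1l5, Sgce, Ppp1r9a, Peg10 and Dlk1 in each library by labelled batch (x axis); colours give the group and bars the mean of 8 libraries. Batch 3 holds the lowest mean of each gene.

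Members of one domain did not vary together as a rule. After removing group and batch means, 24 pairs from one domain had a median Pearson's r of 0.12 (-0.60 to 0.74) over 24 libraries, and 441 pairs from different domains a median of 0.02 (-0.79 to 0.93). The p-values that follow are from permutation tests, adjusted over 465 pairs, on residuals that share libraries and depth. The pair that rose and fell together most closely within a domain was the retrogene Zrsr1, which codes for a splicing factor, with its host Commd1, at r 0.742 and rho 0.721 (adjusted permutation p = 0.00155 and 0.00723), and r 0.697 without the 2 farthest libraries. H13 and Mcts2, a retrogene in its intron, had r 0.701 and rho 0.564 (adjusted permutation p = 0.0112 and 0.0697), and r 0.398 without the 2 farthest. For these nested pairs reads of host and retrogene may be exchanged. Kcnq1ot1 and Slc22a18 had r -0.603 and rho -0.659 (adjusted permutation p = 0.0334 and 0.0193), and r -0.656 without the 2 farthest libraries. With the other tested genes of the domain Kcnq1ot1 had positive values that did not pass: r 0.271 and rho 0.298 with Ascl2 (adjusted permutation p = 0.520 and 0.500, and r 0.258 without the 2 farthest), and r 0.168 and rho 0.140 with Phlda2 (0.721 and 0.801, and r 0.202).

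Closer relations joined genes of different domains. Impact and Peg12 had r 0.933 and rho 0.801 (adjusted permutation p = 0.00116 and 0.00155), and r 0.835 without the 2 farthest libraries. Both were highest in Western-diet female library 3, at 191 CPM for Impact and 89.7 CPM for Peg12, and that library also had the highest no-gene share. Kcnq1ot1 varied with Ppp1r9a at r 0.848 and rho 0.839 (adjusted permutation p = 0.00116 for both), with Ube3a at r 0.757 and rho 0.823 (0.00155 and 0.00116), and inversely with Copg2 at r -0.787 and rho -0.797 (0.00116 and 0.00199). Without the 2 farthest libraries r was 0.790, 0.832 and -0.680 for the 3 pairs. Copg2 fell as the no-gene share rose (r -0.780, rho -0.731, adjusted permutation p = 0.0031 and 0.0170 over 310 relations, and r -0.757 without the 2 farthest libraries). What part that share has in these relations was not tested.

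**Figure D5:**
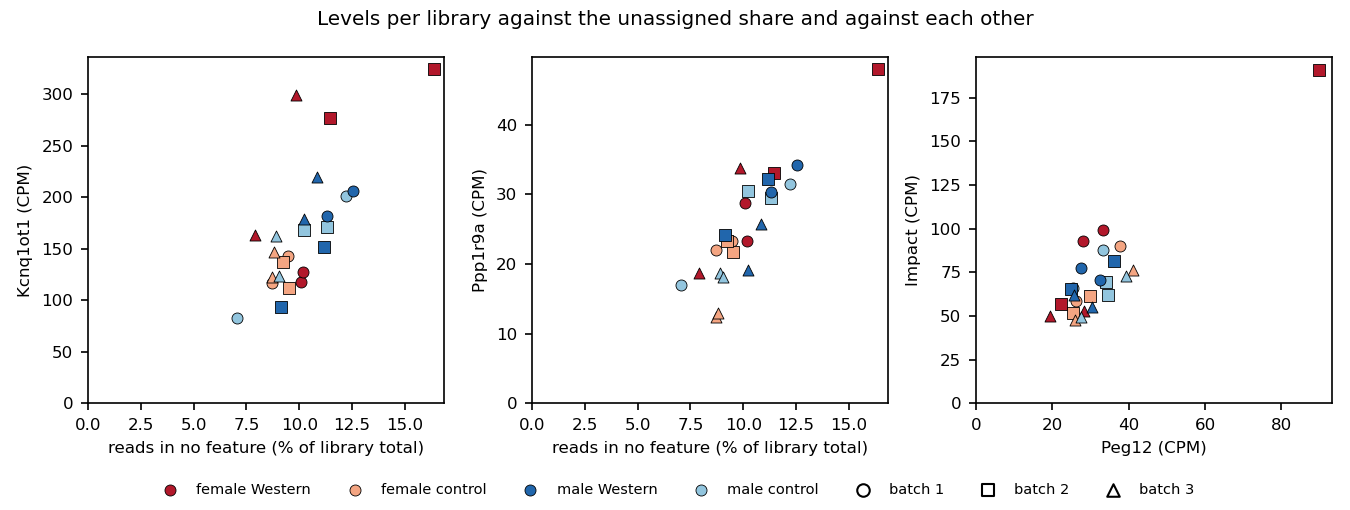
Left and middle: CPM of Kcnq1ot1 and of Ppp1r9a (y axes) against the share of reads in no annotated gene, in percent of the library total (x axes). Right: CPM of Impact (y axis) against CPM of Peg12 (x axis). Each point is 1 of 24 libraries, coloured by group with the symbol giving the batch, and Western-diet female library 3 has the highest value on every axis.

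A second list held 38 other imprinted genes, of which 29 were tested. Whether they are imprinted in LSK cells was not measured, since the counts carry no information on the allele. In females none rose and 2 fell, against 5.42% of all genes called. In the average none rose and 4 fell, against 5.7%, and in males none passed. Gab1, an adaptor of receptor tyrosine kinases, averaged 19.6 ± 4.81 CPM in Western-diet females and 37.2 ± 15.5 CPM in control females (SD, n = 6 each), a log2 fold change of -0.86 ± 0.22 (SE; edgeR adjusted p = 0.0205). Pon2, a lactonase gene, averaged 88.4 ± 12.6 CPM in Western-diet females and 116 ± 30.6 CPM in control females, a log2 fold change of -0.37 ± 0.09 (edgeR adjusted p = 0.0207). In the average, Gatm, the first enzyme of creatine synthesis, had a log2 fold change of -0.31 ± 0.08 and the nucleosome assembly gene Nap1l4 one of -0.19 ± 0.06 (edgeR adjusted p = 0.0154 and 0.0493). Without female control libraries 5 and 6 none of these calls held: in females Gab1 had a log2 fold change of -0.61 (edgeR adjusted p = 0.284) and Pon2 one of -0.28 (0.280), and in the average the log2 fold change was -0.51 for Gab1, -0.23 for Pon2, -0.29 for Gatm and -0.17 for Nap1l4 (adjusted p = 0.0861, 0.0861, 0.0742 and 0.188). With the no-gene share as covariate Gab1 and Pon2 still fell in females, with log2 fold changes of -0.92 and -0.39 (edgeR adjusted p = 0.0237 and 0.0250), and Tnfrsf22 and Pon3 rose, with 0.68 and 0.33 (0.0381 and 0.0401). In the average under that covariate Gab1 and Pon2 fell (edgeR adjusted p = 0.0241 and 0.0246), Osbpl5 rose with a log2 fold change of 0.48 (0.0258), and Gatm and Nap1l4 did not pass (0.0590 and 0.165). The shares of all genes called for diet in the covariate fit are not given here. The 3 most abundant of the list were Cd81 with 474 CPM, Nap1l4 with 437 CPM and Gatm with 222 CPM. The list's median log2 fold change was 0.02 in females, against 0.03 over all genes. Cdkn1c, the cell cycle inhibitor studied in quiescent stem cells, had 0.774 CPM on average and a log2 fold change of 0.02 ± 0.31 in females.

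Another list held 16 genes whose products set or keep imprints, and 13 were tested. In females 2 rose, the de novo DNA methyltransferase genes Dnmt3a and Dnmt3b, against 2.2% of all genes that rose. In the average Dnmt3a rose, against 2.19%; none fell in either, and in males none passed. Dnmt3a averaged 145 ± 34.4 CPM in Western-diet females and 110.1 ± 17.7 CPM in control females (SD, n = 6 each), a log2 fold change of 0.39 ± 0.10 (SE; edgeR adjusted p = 0.0157). Dnmt3b averaged 62.2 ± 16.2 CPM in Western-diet females and 44.3 ± 12.0 CPM in control females, a log2 fold change of 0.52 ± 0.15 (edgeR adjusted p = 0.0489). Both were also called for batch. Without female control libraries 5 and 6 the log2 fold change in females was 0.33 for Dnmt3a (edgeR adjusted p = 0.233) and 0.42 for Dnmt3b (0.347), and in the average Dnmt3a had an adjusted p of 0.131. With the no-gene share as covariate neither passed in females (edgeR adjusted p = 0.0598 and 0.152). The maintenance genes Dnmt1, Uhrf1 and Trim28 were the 3 most abundant, with 380.1, 344 and 155 CPM, and did not pass in females. ZFP57's own gene had 4.0 CPM and a log2 fold change of 0.65 ± 0.22 in females (edgeR adjusted p = 0.0801). The list's median log2 fold change was 0.22 in females and 0.10 in males, against 0.03 and 0.02 over all genes.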

How the data were processed

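Per the labels' protocols, libraries were made from polyA RNA of sorted LSK cells (integrity number over 8.0) with a low-input kit, which does not mark strand. The deposited files hold raw read counts per gene for 24 libraries in 4 groups of 6 and 3 batches. FastQC, cutadapt, STAR, HTSeq, DESeq2 and build GRCm39 are named in the submitters' processing notes; the sources used here give no versions and no annotation. HTSeq's lines that name no gene (31.0 to 39.3% of a library) stayed out of library sizes and tests. Of 55414 identifiers, 52081 matched a symbol in GENCODE vM21, an annotation of the older build GRCm38, used for names, exon lengths and overlaps only.

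Counts were tested in edgeR 4.0.16 (R 4.3.3; filterByExpr, TMM, robust quasi-likelihood, terms for group and batch, all 24 libraries), with Benjamini-Hochberg adjustment over 19616 genes and calls under 0.05; tests are two-sided. SE is the log2 fold change divided by the root of F. The common coefficient of biological variation was 0.261. Relations were computed on residuals of log2 CPM (prior count 2) after group and batch, with 100000 permutations. Within-batch values are differences of mean log2 CPM. Lowest, median and highest are over 6 libraries.

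The members, classes and lists were chosen with earlier results of these data known. Genes given with values are members called in any of 6 comparisons, the 12 most abundant tested members, the 3 with the smallest p in each comparison, and list genes called for diet or among the 3 most abundant. Zfp57, Cdkn1c, Tnfrsf22, Pon3, Osbpl5 and members named for their counts, overlaps, direction over batches or domain were named after their values were seen. Alternatives were RLE size factors, no or a stricter filter, DESeq2 1.42.0, limma-voom 3.58.1 with quality weights, no batch term, a replicate block, one sex, and leaving out each batch or library. The no-gene share as covariate was added after seeing the data. The fit was tested on simulated counts. Replicate numbers were checked for pairing: same-numbered libraries of different groups had a median r of 0.13 (-0.25 to 0.37), against 0.12 for other numbers of the same batch. Counts of any pair of libraries of a group differed by at least 19.1 times sampling noise, so no library was counted as a duplicate.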

Additional observations from a re-analysis of the deposited data

Results flagged for a closer look

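In 124 groups of 6 libraries (31 members in 4 groups), 12 had a library whose gap to its neighbour exceeded Dixon's critical share of the group's range. For independent, normally distributed values chance gives about 1 in 20 groups. The members share libraries and CPM can be skewed, so the 12 cannot be weighed against that rate. Western-diet female library 3 held 191 CPM of Impact (next 99.0) and 89.7 CPM of Peg12 (next 33.3), and the lowest Meg3 at 0.276 CPM (next 0.689). That library also had the highest share of reads in no gene, and the part of that share in these values was not tested. Western-diet female library 2 was high for H19 at 1.17 CPM (next 0.61) and for Igf2r at 18.3 CPM (next 13.2). Airn, the antisense RNA of Igf2r, was high in Western-diet female library 5 at 2.72 CPM (next 1.31) and in control male library 5 at 1.87 CPM (next 1.19). Control male library 5 also had the highest Phlda2 at 4.74 CPM (next 2.49). Nap1l5 was high in library 1 of Western-diet females at 2.95 CPM (next 1.28) and of Western-diet males at 2.74 CPM (next 1.54), both of batch 1. Ndn, a growth suppressor of the MAGE family, was high in control male library 4 at 6.52 CPM (next 4.41), and Copg2 in control male library 1 at 87.7 CPM (next 71.3).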

How the results depend on the processing

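The 15 differences tracked across settings (the members with the smallest p in each comparison of diet or sex, and Ppp1r9a) kept their direction in every setting run, and calls moved; other members were not tracked one by one. Ppp1r9a kept its call in females in 27 of 37 other settings (log2 fold change 0.44 to 0.90) and in the average in 26 of 36 (0.26 to 0.50). In females it was lost under limma-voom (adjusted p = 0.0548), no batch term (0.106), female libraries only (0.0802), without batch 2 (0.158) or batch 3 (0.289), and without Western-diet female library 5 (0.0614), beside the settings given above. In the average it was lost with no batch term (0.148), without batch 2 (0.108) or batch 3 (0.347), and without library 3 of Western-diet females (0.0524) or library 1 (0.0569) or 5 (0.0570) of Western-diet males. Kcnq1ot1 passed in females in 5 of 37 settings, Igf2r in 2, Phlda2 in the average in 4 of 36 and Sgce in 2.

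Members called were as follows where they differed. With no filter there were 2 in females (Kcnq1ot1 and Ppp1r9a), 1 in males (H13), 3 in the average, 1 for the difference of effects and 9 for batch. DESeq2 gave 3 in females (Gnas, Kcnq1ot1 and Ppp1r9a), 3 in the average (Meg3, Phlda2 and Ppp1r9a) and 9 for batch. Limma-voom gave 0, 3 (Meg3, Ppp1r9a and Sgce) and 8. No batch term gave 0 in females and 0 in the average, female libraries only 0, without batch 1 3 (Igf2r, Kcnq1ot1 and Ppp1r9a) and 2, without batch 2 0 and 0, without batch 3 0 and 0 and for batch 0, without female control libraries 5 and 6 0 and 0 and for batch 1, and the covariate 0 in females. Leaving out 1 library gave 0 to 3 in females, 0 to 2 in the average, 4 to 8 for batch, and 0 in males, for the difference and for sex.

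Genes called over the whole table moved likewise. With no filter there were 2023 in females, 380 in males, 1693 in the average, 572 for the difference and 967 for sex; with a stricter filter 7 in males. DESeq2 gave 1805, 99, 1784, 4 and 257, and limma-voom 112 in males and 173 for sex. No batch term gave 404, 0 and 466, and 12 for sex. Female libraries only gave 358 and male libraries only 1. Without batch 1 there were 1839 in females, 1 in males, 124 for sex and 2805 for batch; without batch 2, 297, 1 and 556 in females, males and the average; without batch 3, 146, 0 and 143, and 23 for sex and 1200 for batch. Without female control libraries 5 and 6 there were 154 in females, 447 in the average, 19 for sex and 2946 for batch, and the covariate gave 86 for sex. Counts in females and in the average are not given for limma-voom and the covariate, so member calls there stand without that share. Leaving out 1 library gave 504 to 1386 in females, 1 to 13 in males, 716 to 1464 in the average, 0 for the difference, 22 to 66 for sex and 3702 to 5123 for batch. The cause of these moves was not tested, beyond the fewer libraries in some fits. A replicate block gave 1 gene called in males, against 2, and changed no count of members; the numbers mark only a shared batch, so they pair no libraries. Depth limits the 9 members not tested and those near 10 counts.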
